A study of Mus musculus with 8 samples.

Results

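Cytoplasmic ribosomal protein genes were followed across 4 single-cell libraries of CD4 T cells from mice with experimental autoimmune encephalomyelitis (EAE), a model of multiple sclerosis. They were taken by symbol, as Rps or Rpl followed by a digit together with Rpsa, Rplp0, Rplp1 and Rplp2, leaving out the Rps6k kinases and rows marked -ps. Of 86 such rows among 32285 genes, 84 held at least 100 unique molecular identifiers (UMIs, which count each captured RNA molecule a single time) over the 4 libraries and were kept. They were 31 genes of the small subunit, 43 of the large subunit, 3 of the stalk, the paralogs Rpl22l1, Rps27l, Rpl36al, Rpl39l and Rpl7l1, the Rps27 copy Rps27rt, and Rps19bp1, whose product is no ribosomal protein but binds one. The rows left out were Rpl3l with 0 UMIs and Rpl10l with 1, and the members just inside the limit were Rpl39l with 159 UMIs, Rpl7l1 with 3477 and Rps19bp1 with 4199.

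All mice carried Foxp3-Cre-YFP, a reporter that marks regulatory T cells, and all had EAE. Conventional CD4 T cells with an antigen-experienced phenotype (CD44 positive, TCRβ positive, without Foxp3 reporter signal and without CD11b) were sorted from the brain, freed of its meninges, and from the spinal cord. They were collected 14 or 50 days after immunization, which the study takes as the acute and the chronic phase. RNA was read by droplet sequencing of 3′ ends together with antibodies to CD69, P2X7R and CXCR6. Each tissue and day was 1 RNA library, so every comparison is between single libraries, intervals cover counting error only, and day or tissue and library cannot be told apart. The number of mice behind each library is not given in the labels.

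Each ribosome is built from ribosomal RNA and one copy of most of these proteins, with the acidic stalk proteins present in several copies, and the genes are usually expressed in step. Their mRNAs start with a run of pyrimidines, the 5′ terminal oligopyrimidine (TOP) motif, through which growth signals acting by the kinase mTOR control their translation. In T cells, ribosome production rises when a resting cell is activated, grows and divides, while resting T cells translate little.

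Promoter windows of 4 members are shown as examples of genes that departed from the family in both tissues in the comparison of days described below. Rps27 and Rpl38 took a larger part of the family at day 50, and Rps15 and Rps25 a smaller one. Each window runs from 150 bases before the annotated start to 20 after it, 5′ to 3′ on the gene's strand, from RefSeq on GRCm38.p6. The regions are chr3:90213629-90213798 on the minus strand for Rps27, chr11:114668430-114668599 on the plus strand for Rpl38, chr10:80292281-80292450 on the plus strand for Rps15 and chr9:44407564-44407733 on the plus strand for Rps25. Capitals mark the pyrimidine run that opens at the start site, and the motifs AAGATGG and CCGGAAG where these were found. A run was sought only within 10 bases of the annotated start, so its marking depends on that annotation. Rps15 and Rps25 each hold a pyrimidine run that opens farther before the start, and both runs were left unmarked.
Rps27: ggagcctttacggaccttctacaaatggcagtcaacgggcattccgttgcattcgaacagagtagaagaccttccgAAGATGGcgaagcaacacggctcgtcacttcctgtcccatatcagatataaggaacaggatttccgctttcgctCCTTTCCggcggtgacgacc
Rpl38: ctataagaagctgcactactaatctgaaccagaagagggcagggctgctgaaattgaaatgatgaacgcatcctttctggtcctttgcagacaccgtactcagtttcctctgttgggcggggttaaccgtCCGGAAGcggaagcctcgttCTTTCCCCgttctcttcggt
Rps15: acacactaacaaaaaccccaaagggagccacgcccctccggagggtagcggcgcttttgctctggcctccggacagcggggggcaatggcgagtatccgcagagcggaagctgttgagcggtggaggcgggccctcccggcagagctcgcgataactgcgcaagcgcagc
Rps25: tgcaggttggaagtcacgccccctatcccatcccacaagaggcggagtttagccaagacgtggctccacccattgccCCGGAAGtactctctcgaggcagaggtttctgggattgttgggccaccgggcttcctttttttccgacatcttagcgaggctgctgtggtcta

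Motifs were counted in the whole RefSeq window of each gene, 250 bases before to 50 after the start, which was found for 64 of the 84 members. A C at the annotated start followed by 4 pyrimidines, the TOP pattern, was present in 21.9% of them against 3.01% of 27025 genes with a window. Within 10 bases of the start the pattern was found in 59.4% of members and in 34.4% of all genes. CCGGAAG, the core bound by ETS factors, was found on either strand in 40.6% of members and 9.93% of all genes, AAGATGG, part of the YY1 motif, in 15.6% and 7.28%, and TATAAA in 10.9% and 15.7%. These are matches of letters in a fixed window, and no binding was measured. A gene counted where any of its annotated starts gave a match. The 27025 genes were not matched to the members in expression or number of starts, and the part of this was not tested.

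The depth of the libraries differed. Cells were kept if 500 or more genes were detected and no more than 10% of their UMIs were mitochondrial. This left 10313 cells in day 14 brain, 348 in day 50 brain, 9270 in day 14 spinal cord and 1620 in day 50 spinal cord. They held 47272714, 1177903, 50710551 and 6078142 UMIs in that order, the order used for every list of 4 values below. The median cell held 4004, 3014.5, 4921 and 3470.5 UMIs. Mitochondrial genes took 2.98, 2.40, 2.78 and 2.25% of UMIs and the nuclear RNA Malat1 1.17, 1.87, 1.21 and 1.64%, so the first was lower and the second higher at day 50 in both tissues. Their part in the differences between days was not tested. Transcripts of T cell receptor, CD3 or CD4 genes were found in at least 99.96% of cells of every library. Summed markers of oligodendrocytes stood at 50.4, 45.8, 75.5 and 52.8 UMIs per 1000000 UMIs of the library (CPM), dendritic cell markers at 13.6, 95.9, 13.9 and 10.4 CPM, and gamma-delta T cell markers at 8.82, 12.7, 6.41 and 17.8 CPM. The last were higher at day 50 in both tissues, and their part in the results was not tested. Foxp3 stood at 0.0423, 0, 0.0197 and 0.165 CPM. Pairs of libraries shared 0 to 33 cell barcodes, at most 0.575% of the smaller library.

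The family took 34.0% of all UMIs in day 14 brain (95% exact binomial interval 34.03 to 34.06), 36.4% in day 50 brain (36.35 to 36.52), 30.8% in day 14 spinal cord (30.76 to 30.79) and 37.6% in day 50 spinal cord (37.52 to 37.60). The share was higher at day 50 in both tissues. At day 14 the brain library lay above the spinal cord library, and at day 50 below it. The median cell gave 33.9, 36.3, 30.6 and 36.9%, and held UMIs of 80, 79, 80 and 79 different members.

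Cells of 1 library spread more widely than the libraries differed. From the 5th to the 95th percentile, the share per cell ran from 24.5 to 45.2% in day 14 brain, from 21.8 to 47.6% in day 50 brain, from 22.7 to 40.1% in day 14 spinal cord and from 25.1 to 47.4% in day 50 spinal cord. All 4 ranges overlapped over most of their length. Across cells the rank correlation of the share with the cell's UMI total was -0.03, 0.19, -0.06 and 0.32, a description over cells of a library whose axes share that total.

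**Figure D1:**
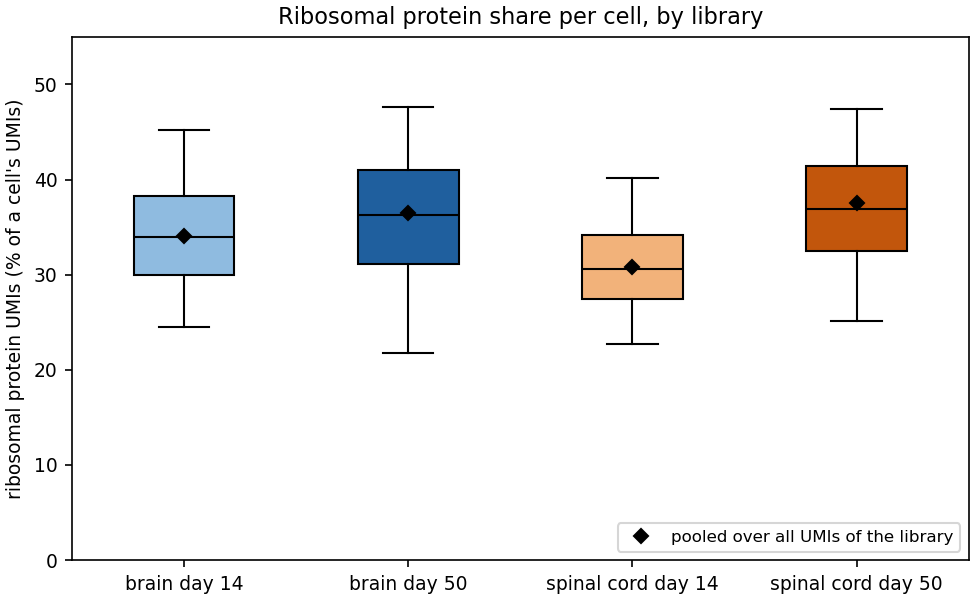
Percent of a cell's UMIs that came from the 84 members, by library: boxes show the quartiles over cells, whiskers the 5th and 95th percentiles and diamonds the pooled share. The medians run from 30.6% in day 14 spinal cord to 36.9% in day 50 spinal cord, and the whiskers of all libraries overlap.

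The summed family was 1.07-fold higher at day 50 than at day 14 in brain (log2 0.10, interval 0.09 to 0.10) and 1.22-fold higher in spinal cord (log2 0.29). The median of all genes moved the other way, by -0.14 over 12802 genes in brain and -0.33 over 13175 in spinal cord, so the family stood 0.23 and 0.62 above it. Between tissues the family was 0.904-fold as high in spinal cord as in day 14 brain (log2 -0.15, against 0.20 for the median gene) and 1.03-fold at day 50 (0.04, against 0.04 for the median gene). With median-of-ratios size factors in place of the UMI total, the difference between days was 0.15 in brain and 0.57 in spinal cord and the tissue difference at day 14 was -0.36, all in the same direction and larger. Scaling to the UMIs outside the family gave 0.15, 0.44 and -0.22, and a tissue difference of 0.07 at day 50. Among cells with 3000 to 5000 UMIs in each library, the brain difference between days was 0.05.

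The members did not move as a block between days. In brain 33 members lay above 0 and 51 below although the sum was higher, and in spinal cord 59 lay above and 25 below. In brain, 13 members were at least 1.5-fold higher in CPM at day 50, against 5.16% of all genes, and 4 were at least 1.5-fold lower, against 5.7%. In spinal cord, 14 were higher, against 6.76%, and 1, Rpl23a, was lower, against 23.9%. The percentages of all genes were not matched to the members in UMIs. They also cover genes with far fewer UMIs than most members, whose ratios are less precise. The part of abundance in these contrasts was not tested. Size factors raised the higher count in spinal cord to 26 and scaling to the UMIs outside the family raised it to 21, while both lowered the lower count in brain to 2.

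To set the common shift aside, each member was compared with the summed family, and the log2 ratio of its part of the family UMIs in 2 libraries is called its departure. This measure does not depend on how the libraries are scaled. A departure of at least 1.2-fold whose interval excluded 1 was counted. In brain 14 members departed upwards at day 50, against 5.41% of all genes under the same rule, and 34 downwards, against 14.5%. In spinal cord 14 departed upwards, against 5.52%, and 24 downwards, against 54.9%. The percentages of all genes carry the family's own shift, since every gene was compared with the summed family. In spinal cord the family stood 0.62 above the median gene, past the 1.2-fold limit of 0.26. Many genes outside the family were thus placed below it by construction, and the 2 downward shares cannot be compared. The percentages of all genes again cover genes with few UMIs, whose wide intervals exclude 1 less readily than those of most members. The part of this in the contrasts with all genes was not tested. Members are parts of the same sum, so a gain by some lowers the departures of the rest. The median departure was -0.19 in brain and -0.11 in spinal cord. Downward counts are therefore not independent of upward ones, and genes outside the family are under no such constraint.

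Most members that departed did so in both tissues, whose libraries are separate. Upwards, 13 were shared, 92.9% of each list, and downwards 22 were shared, 64.7% of the brain list and 91.7% of the spinal cord list. None departed in opposite directions. The labels do not say whether the day 14 and day 50 libraries were made together. Day and preparation therefore cannot be told apart in either tissue. Over 83 members the 2 sets of departures had a Pearson correlation of 0.94 and 75 had the same sign, a description in which both axes are day 50 against day 14. The standard deviation of the departures was 0.46 in brain and 0.36 in spinal cord, against 0.094 between tissues at day 14 and 0.17 at day 50.

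**Figure D2:**
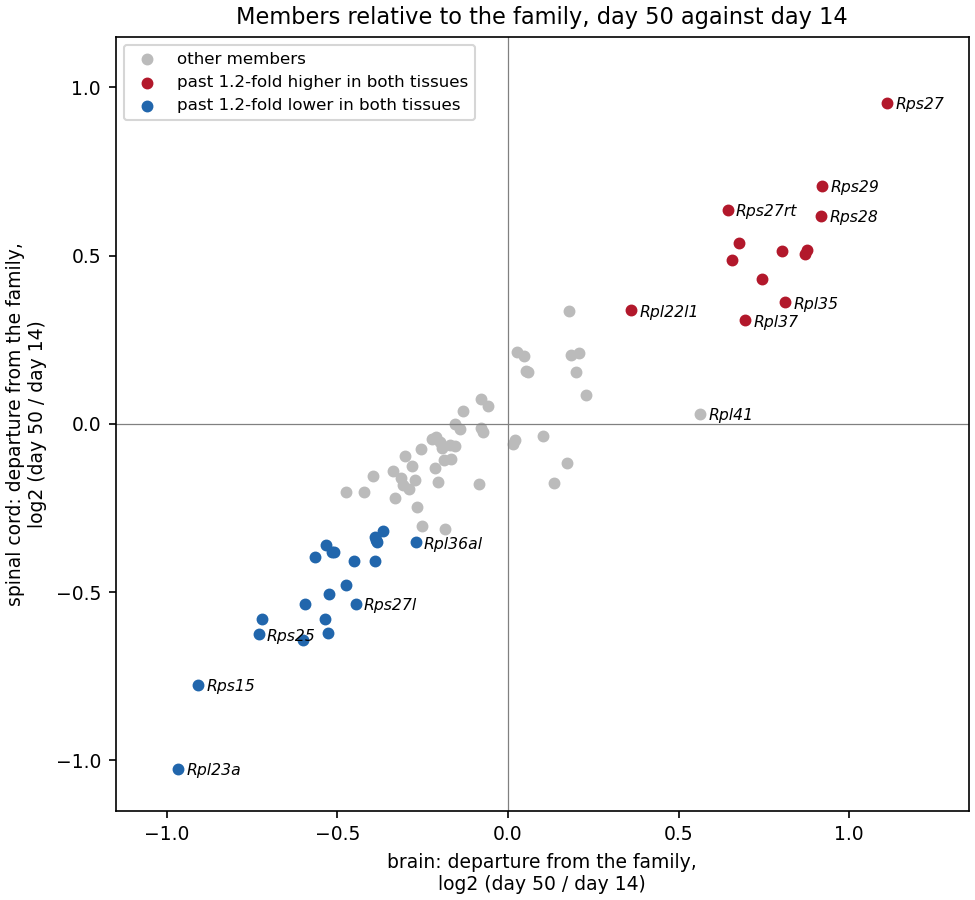
Departure of each member from the summed family at day 50 against day 14, brain on the horizontal and spinal cord on the vertical axis, both as log2 ratios. Red points departed upwards in both tissues (13 members) and blue points downwards in both (22), and Rps27 and Rpl23a lie at the ends.

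Of the 13 shared upward departures, 4 were of small-subunit genes and 7 of large-subunit genes, with Rps27rt and the paralog Rpl22l1 besides. Of the 22 downward ones, 7 were of small-subunit and 11 of large-subunit genes, with Rplp0 and 3 paralogs besides. Rps27, a zinc-binding protein of the small subunit (ENSMUSG00000090733, chr3:90212667-90213648), stood at 5307 CPM in day 14 brain, 12273 in day 50 brain, 4285 in day 14 spinal cord and 10134 in day 50 spinal cord. Both day 50 libraries lay above both day 14 libraries by a wide margin. The ratio of days was 2.31-fold in brain and 2.36-fold in spinal cord, and the departure was 1.11 (1.09 to 1.14) and 0.95 (0.94 to 0.97). Rps29, another zinc-binding protein of the small subunit, stood at 5197, 10532, 4402 and 8768 CPM, with departures of 0.92 and 0.71. Rps28, which lies near the exit of the mRNA channel, stood at 3590, 7255, 3125 and 5854 CPM, with departures of 0.92 and 0.62. In all 3 genes the libraries of the same day lay closer to each other than to either library of the other day.

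On the large subunit the shared upward departures were those of Rpl35, Rpl36, Rpl36a, Rpl37, Rpl37a, Rpl38 and Rpl39. Many of these genes encode small, basic proteins that reach deep into the ribosomal RNA. Rpl39, a short protein at the exit tunnel through which the new chain leaves, stood at 4718, 9272, 4315 and 7531 CPM, and its departures were 0.88 and 0.52. Rpl38, which in mouse embryos is needed for the translation of a set of Hox mRNAs, stood at 3480, 6812, 3221 and 5573 CPM, with departures of 0.87 and 0.50. In each the brain library of day 50 was the highest of the 4.

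Downward departures were led by Rpl23a, a large-subunit protein beside the exit tunnel where nascent chains meet targeting factors (ENSMUSG00000058546, chr11:78180935-78183584). It stood at 918, 503, 806 and 483 CPM, and its departures were -0.97 (-1.09 to -0.85) in brain and -1.03 (-1.08 to -0.97) in spinal cord. The day 50 libraries lay below the day 14 libraries in both tissues. Rps15, a small-subunit protein needed for the export of the subunit from the nucleus, stood at 1198, 683, 966 and 689 CPM, with departures of -0.91 and -0.78. Rps25, which some viral mRNAs need to recruit ribosomes, stood at 1670, 1077, 1359 and 1075 CPM, with departures of -0.73 and -0.63. Rpl13a, which in human myeloid cells leaves the ribosome to silence inflammatory mRNAs, stood at 3866, 2508, 3241 and 2645 CPM, with departures of -0.72 and -0.58. In these 4 genes as well, no day 50 value reached a day 14 value of either tissue.

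Rpl5, which binds the 5S ribosomal RNA and can hold the p53 ligase Mdm2, stood at 1401, 993, 1166 and 981 CPM, with departures of -0.59 and -0.54. Rps14, whose human gene lies in the region lost in a form of myelodysplasia, stood at 4976, 3600, 4429 and 4104 CPM, with departures of -0.56 and -0.40. Of the stalk proteins, which recruit elongation factors, Rplp0 stood at 6615, 4975, 6005 and 5622 CPM and departed downwards by -0.51 and -0.38. Its partners did not pass: Rplp1 departed by 0.05 and 0.20 and Rplp2 by 0.01 and -0.06. Rpl4, Rpl7a, Rpl10a, Rpl15, Rpl18, Rpl24, Rpl28 and Rpl29 of the large subunit and Rps6 and Rps12 of the small subunit were also on the shared downward list, as were 3 paralogs named below.

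The 6 members with the highest mean CPM over the libraries were Rps24, Rps15a, Rpl13, Rps27, Rps29 and Rpsa. Each library counted equally in that mean, and the scale was 3′ UMIs not divided by length. Rps24, a small-subunit protein mutated in some families with Diamond-Blackfan anaemia, stood at 10301, 12477, 9067 and 13957 CPM. It departed by 0.18 in brain, short of the limit, and by 0.33 in spinal cord, past it. Rps15a stood at 7953, 9773, 7644 and 10382 CPM, Rpl13 at 8260, 7878, 7832 and 8897 CPM, and Rpsa, also known as a laminin receptor, at 7280, 6721, 6585 and 7341 CPM. None of these 3 departed past 1.2-fold between days in either tissue.

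**Figure D3:**
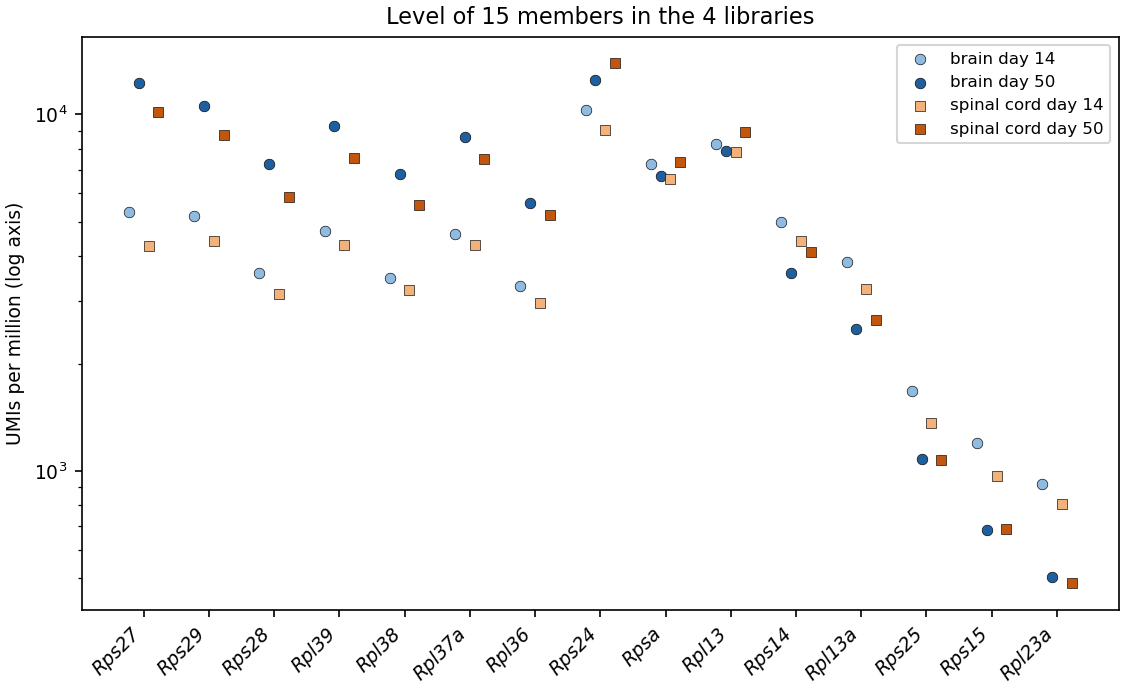
Level of 15 members in CPM on a log axis, with 1 point for each of the 4 libraries. From Rps27 to Rpl36 both day 50 points lie above both day 14 points, and from Rpl13a to Rpl23a they lie below.

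The shared sets were then summed, as a description, since the day comparison chose them. The 13 upward members made up 12.1% of the family UMIs in day 14 brain, 21.9% in day 50 brain, 11.95% in day 14 spinal cord and 17.8% in day 50 spinal cord. The 22 downward members made up 18.2, 12.8, 18.3 and 13.5%. Single cells showed the same order. From the 5th to the 95th percentile the upward set took 10.1 to 15.1% of a cell's family UMIs in day 14 brain, 18.2 to 25.4% in day 50 brain, 10.2 to 14.3% in day 14 spinal cord and 15.2 to 21.1% in day 50 spinal cord. The ranges of the 2 days did not overlap in either tissue.

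The balance of the 2 sets was also followed within each library. The log2 ratio of the upward to the downward set was -0.59, 0.77, -0.62 and 0.39. Over 4 equal bins of cells by UMI total it ran from -0.70 to -0.41 in day 14 brain, from 0.71 to 0.85 in day 50 brain, from -0.69 to -0.46 in day 14 spinal cord and from 0.27 to 0.53 in day 50 spinal cord. It was lower in the deepest bin than in the shallowest in all 4 libraries, but no day 14 bin reached a day 50 bin. Between cells with and without a UMI of any of 20 marker genes it differed by -0.33 to 0.20, and between the highest and lowest of 4 such bins by antibody count by -0.17 to 0.045. In no marker group of a day 14 library did it reach 0, and in none of a day 50 library did it fall below 0. The sets were chosen by the difference between days in these same cells, so a gap between days was built in. Whether depth or cell state has a part in the difference between days was not tested.

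Promoter letters were also counted in the sets that the day comparison chose, as a description with no test. TATAAA was found in 36.4% of the 11 upward members with a window and 5.88% of the 17 downward ones, and the TOP pattern at the start itself in 45.5% and 17.6%. These shares rest on 4 against 1 and 5 against 3 genes. Within 10 bases of the start the TOP pattern was found in 72.7% of the upward and 52.9% of the downward members. CCGGAAG was found in 45.5% and 23.5%, and AAGATGG in 9.09% and 17.6%. The span of the gene in the annotation had a rank correlation of -0.19 with the departure in brain and -0.18 in spinal cord, over the 83 members with a departure in both.

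At day 14 the members of the 2 tissues were nearly alike in proportion. Rpl7l1 departed upwards in spinal cord by 0.32, against 48.7% of all genes past the same limit, and Rps27rt downwards by -0.26, against 4.1%. In this comparison the family lay 0.35 below the median gene, so the percentages of all genes carry that shift. Rps27rt fell short of the limit when cells were thinned to equal depth. At day 50 none departed upwards, against 3.68% of all genes, and 10 departed downwards in spinal cord, against 7.2%. They were Rpl35, Rpl41, Rps28, Rpl39, Rpl38, Rps27, Rpl37, Rps29, Rps27rt and Rps21, from -0.45 for Rpl35 to -0.26 for Rps21. This comparison shares its libraries with the day comparisons, and all of these members but Rpl41 are also in the upward set there. Rpl41, the smallest ribosomal protein, stood at 4256, 6731, 4084 and 5090 CPM and departed between days by 0.56 in brain and 0.03 in spinal cord. No member reached 1.5-fold in CPM between tissues at either day. At day 14 that compares with 14.7% of all genes higher and 3.66% lower in spinal cord, and at day 50 with 2.6% and 4.41%.

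Paralogs can take the place of their partners in a ribosome, so each was set against its partner as a percent of the UMIs of the pair. Rps27l, a target of p53 in human and mouse cells that stands in for Rps27, gave 3.25% in day 14 brain (3.18 to 3.32), 1.13% in day 50 brain (0.96 to 1.31), 3.99% in day 14 spinal cord (3.91 to 4.07) and 1.46% in day 50 spinal cord (1.37 to 1.56). Its own level was 178, 140, 178 and 150 CPM, so the share was lower at day 50 with a lower paralog and a higher partner. Rpl36al gave 51.7, 36.0, 54.4 and 40.0% of its pair with Rpl36a, and its level was 1244, 1104, 1234 and 1180 CPM against 1163, 1961, 1033 and 1767 CPM for Rpl36a. At day 14 the paralog was the larger of the pair in UMIs, and at day 50 the smaller.

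Rpl22l1 behaved differently from these pairs. It gave 28.2% (28.0 to 28.5), 30.1% (28.9 to 31.4), 26.2% (26.02 to 26.47) and 29.8% (29.2 to 30.3) of its pair with Rpl22, a protein that αβ T cells need to develop in mice. Paralog and partner were both higher in CPM at day 50, at 959, 1317, 784 and 1208 for Rpl22l1 and 2435, 3052, 2203 and 2853 for Rpl22. Rpl7l1 gave 1.07, 0.93, 1.45 and 1.04% of its pair with Rpl7. Rpl39l, known from the testis, had 80, 0, 70 and 8 UMIs, at most 0.036% of its pair. Its 0 in day 50 brain lies below a floor of 3 counts, or 2.55 CPM. Rps27rt stood at 115, 192, 86.4 and 164 CPM and departed by 0.64 in both tissues, like Rps27 itself, and since its sequence resembles that of Rps27, reads of the one may have been assigned to the other. Rps19bp1 stood at 38.3, 44.995, 40.5 and 43.8 CPM, and its intervals included 0 in both day comparisons.

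Markers of T cell state were used to ask which cells held the larger share. Each cell was thinned to 2000 UMIs, which left out 1163, 98, 142 and 127 shallower cells, and cells with and without a UMI of a marker were compared within a library where both held at least 20 cells. Cells with a lower share have more UMIs left for other genes, so detection of any gene leans towards them; the part of this in the values below was not tested. Cells with a UMI of Klf2, a factor of quiescence and recirculation, held a higher share in 4 of 4 libraries, by 1.36 to 3.15 percentage points. The same held for Il7r, the receptor of the survival cytokine IL-7, by 1.33 to 2.77 points, and for Tcf7, a factor of memory and self-renewal, by 1.26 to 2.80 points. Ccr7, the homing receptor for lymph nodes, gave 1.45 to 4.91 points in 3 of 3 libraries, and S1pr1, the exit receptor, 0.15 to 1.31 points in 4 of 4.

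Cells with a UMI of most markers of activation and effector function held a lower share. Tnfrsf9, a costimulatory receptor induced on activation, gave differences of -5.04 to -2.86 points in 3 of 3 libraries, and Mki67, a marker of dividing cells, -5.23 in brain and -3.07 in day 14 spinal cord. Havcr2, an inhibitory receptor, gave -4.71 and -3.12 and Egr2, a factor induced by the T cell receptor, -4.12 and -2.94 in the same libraries. Cxcr6, a receptor of tissue-resident cells, gave -3.23 to -1.89 points in 4 of 4 libraries, Il17a, the cytokine of Th17 cells, -2.68 to -2.15, and Ifng, that of Th1 cells, -3.03 to -1.05. Cd69 gave -1.13 to -0.27 in 4 of 4. Nr4a1, an early response gene of the T cell receptor, was mixed, with a higher share in 1 library and a lower one in 3, by -1.17 to 0.20 points. For comparison, the standard deviation of the share over cells without a Mki67 UMI in day 14 brain was 6.195 points. No cell type lacking these genes was at hand to measure free RNA. Without thinning, the sign turned for S1pr1 in day 50 brain (-0.73) and for Eomes (0.077) and Il2ra (1.497) in day 50 spinal cord.

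**Figure D4:**
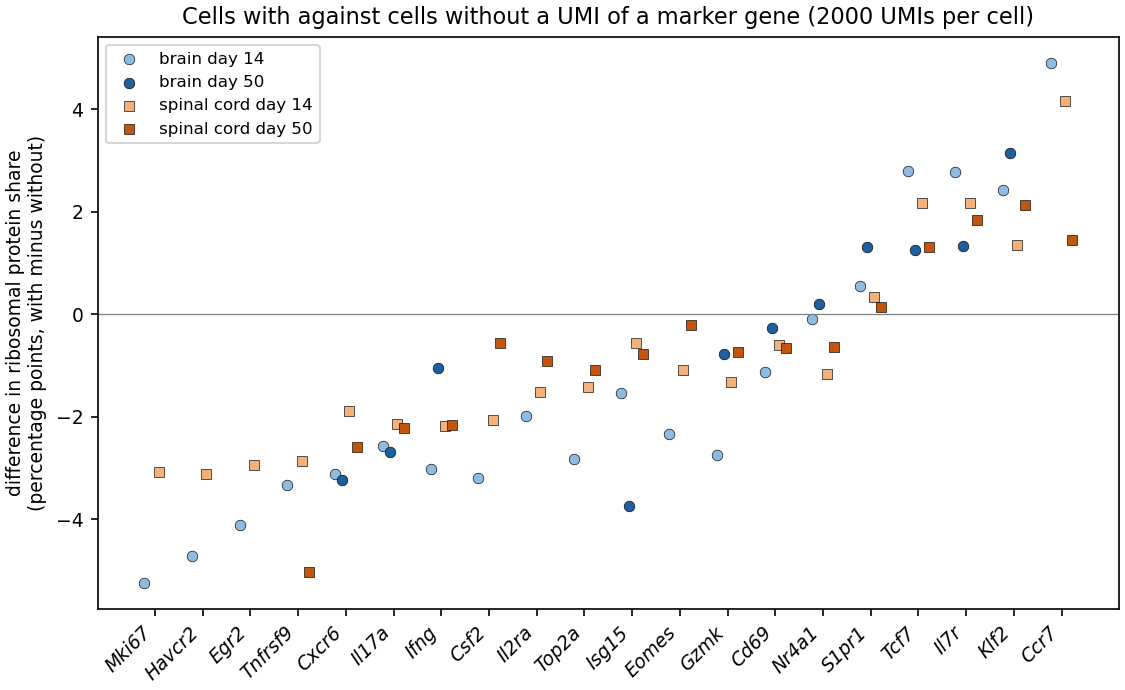
Difference in mean ribosomal protein share, in percentage points, between cells with and without a UMI of each of 20 marker genes, 1 point a library, at 2000 UMIs per cell. Ccr7, Klf2, Il7r, Tcf7 and S1pr1 lie above 0 in every library shown, and the genes from Mki67 to Cd69 below it.

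The antibody counts are a separate readout. Cells of each library were put in 4 equal bins by the count of an antibody. Between the highest and the lowest bin by CXCR6 antibody, the share differed by -2.98, -3.19, -1.85 and -2.19 points, lower in the highest bin of all 4 libraries, as with the Cxcr6 transcript. For CD69 the differences were -0.58, -2.22, -0.77 and -0.42 points, and for P2X7R, an ATP receptor, 1.05, -0.73, 0.89 and 0.91. The highest bins were deeper in RNA, for CXCR6 at medians of 5163, 4001, 5490 and 4121 UMIs against 2815, 2116, 4313.5 and 3001.

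The part of Rps27l in its pair also differed with the markers. In brain at day 14 it made up 5.71% of its pair in cells with a Tnfrsf9 UMI and 2.58% in those without, in day 14 spinal cord 5.62 and 3.33%, and in day 50 spinal cord 5.85 and 1.25%, the last from 29 cells with the marker. With Mki67 the values were 6.06 and 2.60% in brain and 5.14 and 3.38% in day 14 spinal cord. Cells with an Il17a UMI had the higher value in 4 of 4 libraries, by 1.07 to 3.28 points. Cells with a UMI of Klf2, Tcf7 or Il7r had the lower value in 4 of 4 libraries, but by as little as 0.046 points for Klf2 and 0.086 for Il7r in the day 50 libraries, where intervals overlapped. In cells without a Tnfrsf9 UMI the spinal cord value was 3.33% at day 14 and 1.25% at day 50. Cells without a UMI may still hold the transcript, and the part of cell state in the difference between days was not tested. Rpl22l1 was also higher in its pair with a Tnfrsf9 UMI, by 2.34 to 8.21 points in 3 of 3 libraries. Each of 68 splits of a library by a marker also gave 79 to 83 members a departure, of cells with against cells without the UMI. Rps27 had the lowest one in 13 splits and the highest in 6.

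**Figure D5:**
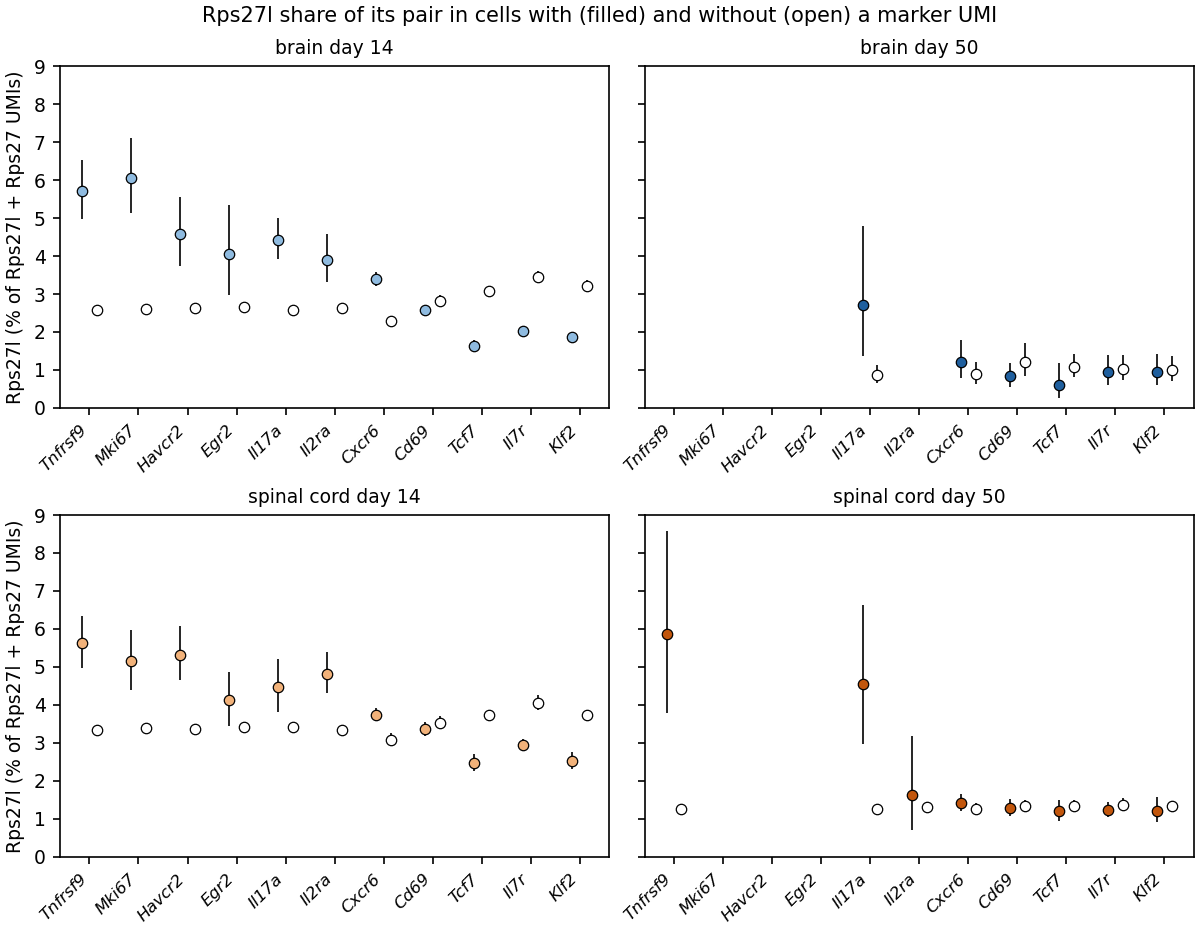
Rps27l as percent of the UMIs of Rps27l and Rps27 in cells with (filled) and without (open) a UMI of a marker, by library, with exact binomial 95% intervals; a marker is left blank where under 20 cells held it. In both day 14 libraries the filled points lie above the open ones for Tnfrsf9, Mki67, Havcr2 and Il17a and below them for Tcf7, Il7r and Klf2.

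Genes that make, load or regulate ribosomes were counted beside the family, at 1.5-fold in CPM and with the backgrounds above. Of 20 TOP mRNAs outside the family, 1 was higher and 2 lower at day 50 in each tissue, with medians of -0.22 in brain and -0.11 in spinal cord. Fau, which encodes the small-subunit protein eS30 fused to a ubiquitin-like protein, stood at 9494, 9984, 8999 and 10458 CPM, with departures from the family of -0.03 and -0.07. It was chosen after its values were seen. Lower were Eef2, the translocation factor, in both tissues, at 704, 433, 735 and 489 CPM, Rack1, a scaffold on the small subunit, in brain, by -0.60, and Pabpc1, the poly(A)-binding protein, in spinal cord, by -0.73.

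Of 28 initiation and other elongation factors, 0 were higher and 1 lower in brain and 1 higher and 6 lower in spinal cord. The higher one was Eif1, which guards the choice of the start codon, at 2515, 3433, 1891 and 3965 CPM. Of 38 ribosome biogenesis genes, 3 were higher and 2 lower in brain, Nop10, Ddx21 and Ddx18 among the former, and 0 were higher and 6 lower in spinal cord, led by Rrp1b at -1.08. At day 14, 5 of the 38 were higher in spinal cord than in brain, with Nop58 at 0.72, and none was lower. Of 78 mitochondrial ribosomal proteins, which serve a separate ribosome, 1 was higher and 6 lower in brain and 0 higher and 8 lower in spinal cord, with medians of -0.19 in both, against -0.14 and -0.33 for all genes. Of 19 regulators, 2 were higher and 3 lower in brain and 0 and 3 in spinal cord. Ddit4, an inhibitor of mTOR signalling, stood at 55.4, 22.9, 81.5 and 9.21 CPM and was lower at day 50 in both tissues.

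The small nucleolar RNA hosts differed most from the background. These noncoding RNAs carry the guide RNAs for ribosomal RNA modification in their introns, and several carry a TOP motif. Of 11, 4 were higher and 0 lower at day 50 in brain, with a median of 0.43, and 8 were higher and 0 lower in spinal cord, with a median of 1.005. Snhg8 stood at 204, 414, 135 and 335 CPM, and Snhg9 at 21.3, 75.6, 13.3 and 42.4 CPM. Between tissues at day 14, 6 of the 11 were lower in spinal cord and none was higher, with a median of -0.59, led by Snhg15 at 31.9 CPM in brain and 15.2 in spinal cord.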

How the data were processed

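The deposited values were raw UMI counts per cell barcode in 1 matrix for each RNA library, with gene rows and 3 antibody rows, per the file headers, and the barcodes had been called as cells before deposit. Per the submitters' processing notes, Cell Ranger 6.1.1 produced the counts on mm10, so genes with near-identical copies can have reads split between rows or lost. The antibody rows carry identifiers (CD69, P2X7R and CXCR6) and names that differ for 2 of the 3, and the identifiers were used. Antibody counts were read from those rows.

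UMIs were summed over kept cells for each library and gene and scaled to all gene UMIs (CPM), with no division by length, since 3′ ends were counted. Ratios carry exact conditional binomial 95% intervals and shares exact Clopper-Pearson ones, both for counting error only. A gene entered a comparison with 10 or more UMIs in its 2 libraries together. The percentages of all genes cover every such gene and were not matched in UMIs to the members or the lists. Ratios used the counts as they were, and a floor of 3 counts served only to give a CPM limit for a 0. Rpl39l, at 0 in day 50 brain, had no departure between days there and was counted among the members below 0. Since groups are single libraries, nothing could be tested across animals and no p-value is given. Members named were the 6 with the highest mean CPM over the libraries and the 5 highest and 5 lowest departures in each comparison. Departures were ranked by the interval bound nearer 0. All paralogs were named too, and for each list up to 3 genes per comparison. A few others of known role were chosen after their values were seen. The members and lists were chosen with earlier results of these data known. Scrublet (scanpy 1.11.5) called 15 doublets in each day 50 library and 0 in both day 14 libraries, which is a failure at that size, so no doublets were removed. Ratios and calls were tested on simulated data. Alternatives changed the scaling, depth, cell and gene filters, doublets, dividing cells and copy rows. Numpy 2.4.6, scipy 1.17.1 and pandas 2.3.3 were used. Gene symbols and promoter windows matched RefSeq on GRCm38.p6 by symbol. The paralog proteins were not compared here. A few genes are not reported by name, though they stay in all sums and counts.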

Additional observations from a re-analysis of the deposited data

How the results depend on the processing

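No paired analysis was possible because there is only 1 library for each group and no label links libraries by mouse. Libraries are given below in the order of the report, and family log2 ratios as day 50 against day 14 in brain, the same in spinal cord, spinal cord against brain at day 14 and the same at day 50. Of 852 departures of 71 named members and comparisons over 12 alternatives, 839 stayed on the same side of the limit. Another 8 fell short of it, 5 newly passed it, and 0 of those past the limit as reported changed sign. Size factors, scaling outside the family, leaving out mitochondrial rows and Malat1, and removing the gene filter cannot change a departure. All 71 values under each of them were therefore the same by construction. No family ratio changed direction under these alternatives, and removing the filter on genes changed no count.

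Median-of-ratios size factors gave family log2 ratios of 0.15, 0.57, -0.36 and 0.062, with 2 members 1.5-fold lower in brain at day 50, 26 higher and 0 lower in spinal cord, and 1 lower in spinal cord than brain at day 14. Scaling to UMIs outside the family gave 0.15, 0.44, -0.22 and 0.0696, and 2 lower in brain. Without mitochondrial rows and Malat1 the shares were 35.5, 38.1, 32.1 and 39.1%, and the tissue ratios -0.15 and 0.0382. Cells thinned to 2000 UMIs gave shares of 34.5, 36.6, 31.0 and 37.3%, ratios of 0.0877, 0.27, -0.15 and 0.0243, and 2 upward and 0 downward departures between tissues at day 14. Every deposited barcode gave 33.9, 36.2, 30.7 and 37.5%, and tissue ratios of -0.14 and 0.0486. Cells with 1000 genes and at most 5% mitochondrial UMIs gave 33.9 and 30.8% at day 14, ratios of 0.10 in brain and -0.14 at day 14, and 0 downward departures between tissues at day 14. Removing Scrublet calls gave 36.3% in brain at day 50 and ratios of 0.0926 in brain and 0.0487 between tissues at day 50. Without dividing cells the shares were 34.8, 37.1, 31.2 and 37.7%, the ratios 0.27 in spinal cord, -0.16 and 0.0239 between tissues, and 3 members departed upwards between tissues at day 14. Adding the copy rows gave 34.1% in brain at day 14.

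3 alternatives were chosen after seeing the data. Cells with 3000 to 5000 UMIs gave shares of 35.0% in brain at day 14 and 31.3 and 37.9% in spinal cord, ratios of 0.0547, 0.27, -0.16 and 0.0583, and 2 upward and 0 downward departures between tissues at day 14. Cells with an Il7r UMI gave 34.9, 37.5, 31.4 and 38.7%, ratios of 0.10, 0.30 and -0.15, and 2 upward departures between tissues at day 14. Marker differences over all UMIs of each cell changed sign for S1pr1 in brain at day 50 (-0.73), Eomes in spinal cord at day 50 (0.077) and Il2ra in spinal cord at day 50 (1.497). The cause was not tested. The brain library of day 50, with 348 cells, limits the precision of low members.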
